A study of Mus musculus with 6 samples.

Results

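The nuclear-encoded subunits of the respiratory chain were taken as the protein-coding rows of the deposited table that do not lie on the mitochondrial chromosome and whose symbols belong to the Nduf, Sdh, Uqcr, Cyc1, Cox4 to Cox8 and Atp5 families. These were 83 of 20015 rows, with 38 in complex I, 4 in complex II, 9 in complex III, 15 in complex IV and 17 in complex V, and their genes lie on 19 chromosomes. RNA came from quadriceps, the muscle group that extends the knee, in 6 libraries. Of these, 3 were labelled ACL injured, after the anterior cruciate ligament that steadies the knee, and 3 non-injured, and both sets carry letters A to C. Mus musculus is the labelled organism and all rows are mouse gene models, while the series text and the protocol speak of human tissue, so the values are treated here as mouse. No label gives strain, genotype, age or time after injury, or says whether a library stands for an animal of its own. The p-values below therefore rest on the spread between libraries, and that spread may be technical.

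The respiratory chain is built in the inner mitochondrial membrane. Complexes I and II pass electrons from NADH and succinate to ubiquinone, complex III passes them on to cytochrome c, complex IV gives them to oxygen, and complex V, the ATP synthase, uses the proton gradient that complexes I, III and IV make. Complexes I, III, IV and V combine subunits from the nuclear genome with subunits made inside the organelle from mitochondrial DNA, whereas complex II is wholly nuclear-encoded. In skeletal muscle several subunits of complex IV exist as a heart and muscle isoform beside one found in most tissues.

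Library totals ran from 6.45 to 8.75 M estimated counts, and the 83 genes took 0.512% to 0.633% of them. Summed markers of muscle fibres (12 of 12 in the table, among them Acta1, Ckm and Myh4) reached 39422 to 48541 CPM, counts scaled for library size, in injured and 43073 to 49836 CPM in non-injured libraries, so the muscle fibre markers of the labelled tissue were present throughout. Summed macrophage markers reached 123 to 209 CPM in injured and 59.2 to 70.9 CPM in non-injured libraries. Fibroblast markers reached 471 to 756 CPM in injured and 213 to 264 CPM in non-injured libraries. The widest gaps were in the collagen genes Col1a1 (means of 208 CPM in injured and 35.1 CPM in non-injured) and Col3a1 (254 and 56.8 CPM). Of the 10 fibroblast markers, 5 lay higher in every injured library and 5 overlapped, among them Dcn (70.7 and 70.5 CPM). Erythroid markers reached 132 to 324 CPM in injured and 71.3 to 151 CPM in non-injured libraries, and endothelial markers 129 to 146 CPM in injured and 111 to 122 CPM in non-injured libraries. Slow fibre markers reached 454 to 942 CPM in injured and 194 to 760 CPM in non-injured libraries, and adipocyte markers 69.4 to 77.1 CPM in injured and 88.1 to 134 CPM in non-injured libraries. The part of these cell types in the values below was not tested. In such bulk samples, fewer cells of a type and less RNA per cell cannot be told apart.

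No nuclear-encoded subunit passed the test between injured and non-injured quadriceps, and most fold changes were small. Of 82 members tested, 0 were higher and 0 lower in injured quadriceps (edgeR quasi-likelihood test, adjusted p under 0.05), where 0.746% of the 16095 genes tested were called. DESeq2 and limma-voom also called 0 members, and so did edgeR with the letter as a block, which called 3.21% of all genes higher and 2.65% lower. At an unadjusted p under 0.05 there were 2 members, Ndufb7 and Ndufa4l2, against 15.4% of all genes tested. Of these, Ndufa4l2 passed the count filter through its injured libraries alone. The remaining member, Atp5g2, had too few reads for the test, with a mean of 9.38 counts per library.

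The signs leaned towards lower values in injured quadriceps, by small amounts. The median log2 fold change, injured over non-injured, was -0.07 over the 82 members and 0.00 over all genes tested, and 62 members had a negative and 20 a positive sign. The 2754 genes that lie within the middle range of the members' abundance, from a mean of 193 to 628 counts, had a median of -0.09, and 65.9% of them were negative. By complex the medians were -0.07 for I, -0.06 for II, -0.12 for III, -0.07 for IV and -0.11 for V. The 95% interval of the log2 fold change lay within a 1.5-fold change either way for 61 of 82 members and within 1 log2 unit for 80. Upper quartile scaling in place of TMM moved the median of all genes by 0.05 and left 48 members negative.

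**Figure D1:**
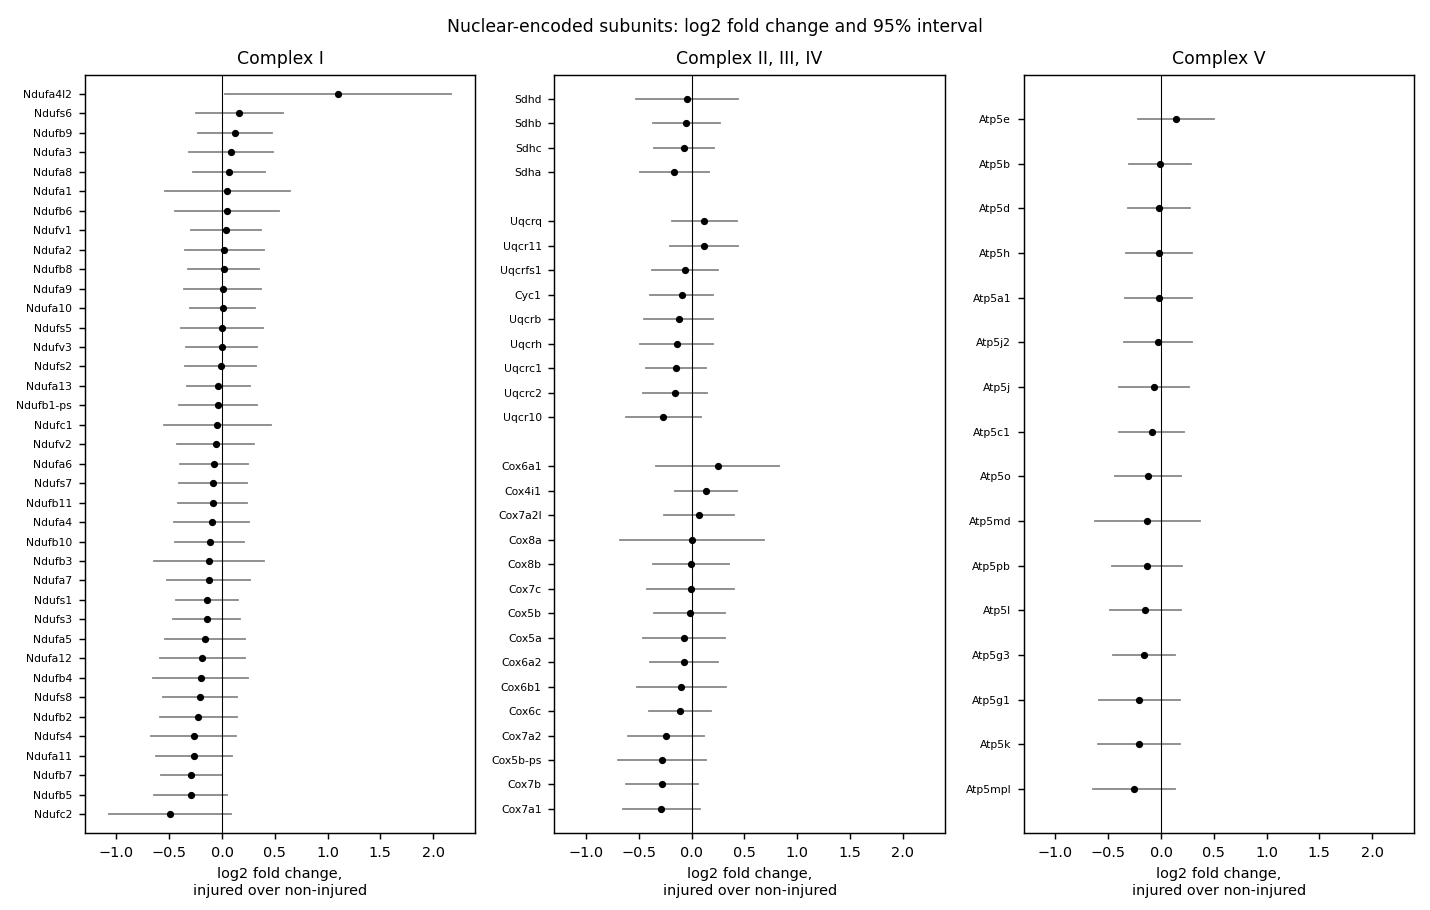
Log2 fold change of each tested member, injured over non-injured (points), with its 95% interval (lines) from edgeR, in panels for complex I, complexes II to IV and complex V. All but Ndufa4l2 (1.10) lie between -0.49 and 0.25, and the intervals of Ndufb7 and Ndufa4l2 alone leave out 0.

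Summed over its members, each complex had overlapping groups. All 83 members together reached 5726, 5045 and 6065 CPM in injured libraries A, B and C, against 6385, 5876 and 5330 CPM in non-injured libraries A, B and C. The groups overlapped, at 5612 ± 520 CPM in injured and 5864 ± 528 CPM in non-injured libraries (SD, n = 3 each), a ratio of 0.957. Complex I summed to 1831, 1628 and 1980 CPM in injured libraries, against 2104, 1892 and 1698 CPM in non-injured libraries. Complex V reached 1975, 1730 and 2066 CPM in injured libraries, against 2157, 2001 and 1822 CPM in non-injured libraries. Ratios of injured over non-injured means were 0.923 for complex II, 0.956 for III, 0.959 for IV and 0.965 for V, and the groups overlapped for each.

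The 13 subunits encoded in mitochondrial DNA, which join these proteins in complexes I, III, IV and V, are given beside them. They summed to 50310, 40536 and 47395 CPM in injured libraries, against 32294, 29116 and 26836 CPM in non-injured libraries. Every injured library lay above every non-injured one, at 46080 ± 5018 CPM in injured and 29415 ± 2741 CPM in non-injured libraries (SD, n = 3 each), and 6 of the 13 passed the test as higher, or 13 with the letter block. These edgeR calls dropped to 1 when injured A was left out and to 0 when injured C, or either of non-injured B and C, was, while 12 or 13 of the subunits had an unadjusted p under 0.05 in each of these fits. On the full set of libraries DESeq2 called 12 of them and limma-voom 6. Mitochondrially encoded CPM per nuclear-encoded CPM came to 8.79, 8.04 and 7.81 in injured libraries, against 5.06, 4.96 and 5.03 in non-injured libraries. The injured libraries lay apart from the non-injured ones, by 3.20 in the mean, with an exact two-sided permutation p of 0.1, the smallest that 3 libraries against 3 can give. The marker sums of macrophages, fibroblasts and endothelium also lay higher in every injured library and those of adipocytes lower, while the erythroid and slow fibre sums overlapped, and their part in this ratio was not tested. The deposited values are named as myonuclear RNA, while the labels' protocol describes total RNA. The part of the RNA fraction in this ratio was not tested.

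**Figure D2:**
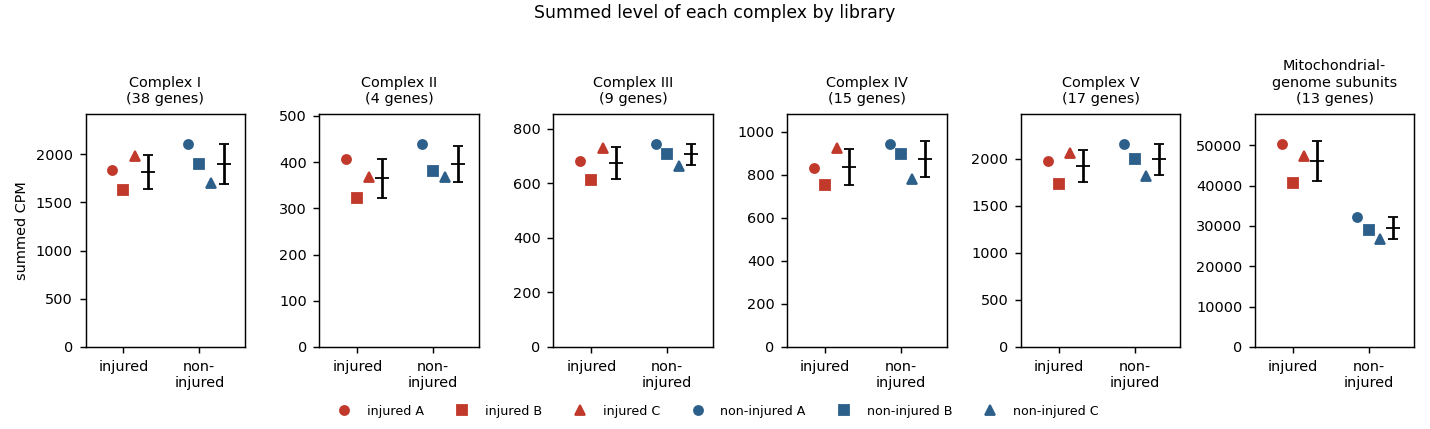
Summed CPM of each complex's nuclear-encoded members and of the 13 mitochondrially encoded subunits in each library (points, with the letter as the shape), with the mean and SD of each group (bars). The groups overlap in complexes I to V, while the mitochondrially encoded sum is 40536 or more in injured and 32294 or less in non-injured libraries.

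Many members shared their highest and lowest libraries, and the median ratio of letter C ran against those of letters A and B. The median log2 ratio of the injured to the non-injured library, on CPM + 0.5, was -0.19 for letter A, -0.24 for letter B and 0.18 for letter C. Injured B held the lowest of the 3 injured values for 58 of 82 members and injured C the highest for 52. Among non-injured libraries, A was highest for 58 members and C lowest for 66. The same order over all genes was not examined. The muscle fibre markers gave medians of -0.31, -0.20 and 0.27 for letters A, B and C, and the part of fibre content in the members' values was not tested. Without injured B 44 members were negative, with a median of -0.01, and without injured C 72 were, with a median of -0.18.

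**Figure D3:**
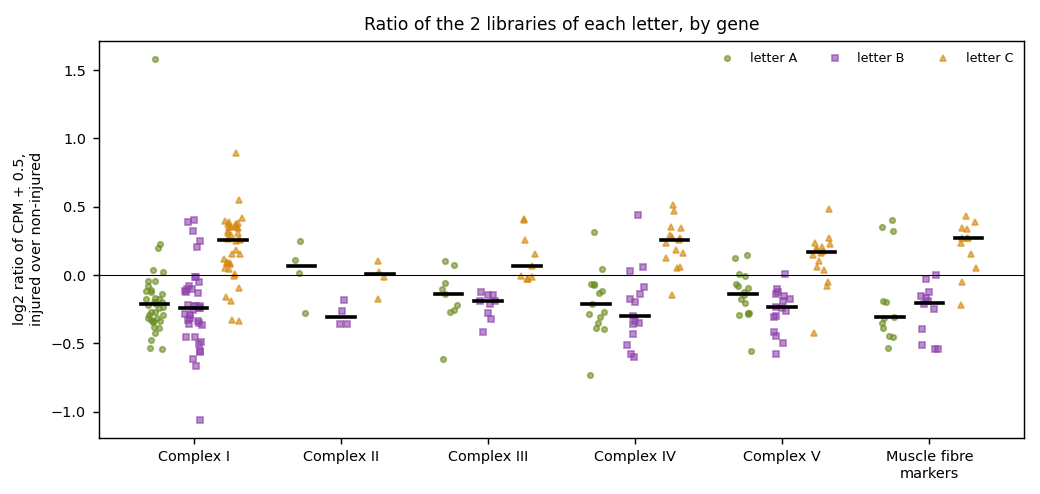
Log2 ratio of CPM + 0.5, injured over non-injured, within each letter (A, B or C), for each tested member by complex and for 12 muscle fibre markers, with the median as a bar. Most complexes sit below 0 for letters A and B and above 0 for letter C, as do the fibre markers.

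Groups that did not overlap were few among the members. Every injured library lay above every non-injured one for 1 of 82 members, Ndufa4l2, against 11.9% of all genes tested, and below for 4, Ndufb7, Uqcrc1, Uqcrc2 and Cox7a2, against 9.61%. These shares are under the background, and Ndufa4l2 passed the count filter through its injured libraries alone.

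Complex I, the NADH dehydrogenase, has a peripheral arm that oxidises NADH and a membrane arm that pumps protons, held by many accessory subunits. Ndufb7, an accessory subunit that faces the intermembrane space (chromosome 8, 83566671 to 83571627 on mm10, plus strand), had 43.8, 44.2 and 44.3 CPM in injured libraries, against 57.3, 54.1 and 50.5 CPM in non-injured libraries. The injured values were nearly equal and all below the non-injured ones (log2 -0.29 ± 0.13 SE, adjusted p 0.324). Ndufc2, an accessory subunit of the membrane arm, had the lowest fold change of any member, with 15.3, 7.18 and 9.11 CPM in injured libraries, against 17.2, 15.5 and 11.6 CPM in non-injured libraries. Injured A lay among the non-injured values while injured B and C lay below all of them, and the log2 fold change was -0.49 ± 0.27 (SE, adjusted p 0.41), or -0.87 without injured A. Within each letter the injured library lay below the non-injured one, by log2 ratios of -0.16 (A), -1.06 (B) and -0.34 (C), and with the letter as a block the adjusted p was 0.148. Ndufb5, also of the membrane arm, had 58.7, 42.9 and 47.1 CPM in injured libraries, against 66.3, 63.8 and 52.6 CPM in non-injured libraries (log2 -0.30 ± 0.16 SE, adjusted p 0.402). Its exons overlap the span of Mrpl47 on the other strand. The strand setting is not given and overlap between exons of the 2 genes was not examined, so some reads may come from Mrpl47.

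At the other end of complex I stood Ndufs6 and Ndufb9. Ndufs6, a zinc-binding subunit of the NADH-oxidising arm, had 14.9, 18.2 and 19.1 CPM in injured libraries, against 18.6, 13.8 and 14.2 CPM in non-injured libraries, so letter A ran against letters B and C (log2 0.16 ± 0.19 SE, adjusted p 0.737). Ndufb9, an accessory subunit of the membrane arm, had 123, 92.8 and 119 CPM in injured libraries, against 121, 93.9 and 91.4 CPM in non-injured libraries (log2 0.13 ± 0.16 SE, adjusted p 0.76), and only letter C parted its libraries. Per kb of transcript the highest levels of complex I were those of Ndufa6 (170 CPM per kb), Ndufb9 (152) and Ndufb10 (138), at a median of 46.2 CPM per kb over the complex. Ndufa6 had a log2 fold change of -0.08 and Ndufb10 one of -0.12, with overlapping groups. Of the 38 members 25 were negative and 13 positive.

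Ndufb4, an accessory subunit of the membrane arm (chromosome 16, 37647170 to 37654454 on mm10, minus strand), cannot be read on its own. The single annotated transcript of Ndufb4c, a row named like it and annotated as a processed pseudogene on chromosome 15, matched the Ndufb4 transcript at 100% of 390 aligned bases, and every count of Ndufb4 was fractional, as when a counter shares reads between rows. Ndufb4 itself had 12.6, 11.4 and 16.9 CPM in injured libraries, against 18.5, 13.5 and 15.1 CPM in non-injured libraries (log2 -0.20 ± 0.21 SE, adjusted p 0.704). Ndufb4c, named after its values were seen, had more, with 28.5, 27.2 and 33.2 CPM in injured libraries, against 46.6, 41.4 and 41.2 CPM in non-injured libraries. All injured values of Ndufb4c lay below the non-injured ones, at a log2 fold change of -0.54 ± 0.15 (SE), with an adjusted p of 0.103, and 0.0242 with the letter block, where it was called lower.

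Taken as 1 row, Ndufb4 and Ndufb4c had 41.2, 38.5 and 50.1 CPM in injured libraries, against 65.0, 54.9 and 56.4 CPM in non-injured libraries. The groups did not overlap, and in a fit with such rows merged, chosen after seeing the data, the log2 fold change was -0.44 ± 0.15 (SE, adjusted p 0.19). With the letter as a block as well, the merged row was lower in injured quadriceps at an adjusted p of 0.0431, and it was the only 1 of 81 members called in any fit that was run. That fit called 2.7% of all genes lower, so 1 of 81 members lies below its background. Other members with such a row gave overlapping groups when merged. Cox5b and Cox5b-ps, a row labelled protein-coding that matches Cox5b at 99.2% of 390 bases, summed to 103, 128 and 149 CPM in injured libraries, against 135, 145 and 120 CPM in non-injured libraries (log2 -0.07 ± 0.16 SE, adjusted p 0.869).

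Complex II, the succinate dehydrogenase, also works in the citric acid cycle. Sdha, the flavoprotein that oxidises succinate, had 219, 180 and 207 CPM in injured libraries, against 265, 204 and 209 CPM in non-injured libraries. Non-injured A stood highest, and the log2 fold change was -0.16 ± 0.15 (SE, adjusted p 0.668). Sdhb, the iron-sulphur subunit, had 61.4, 49.5 and 57.0 CPM in injured libraries, against 56.9, 63.7 and 52.9 CPM in non-injured libraries (log2 -0.05 ± 0.15 SE, adjusted p 0.91). Sdhc, a membrane anchor, had 73.5, 65.3 and 73.0 CPM in injured libraries, against 72.6, 78.3 and 71.8 CPM in non-injured libraries (log2 -0.07 ± 0.13 SE, adjusted p 0.841). The other anchor, Sdhd, had 52.8, 27.4 and 30.2 CPM in injured libraries, against 44.3, 35.1 and 34.1 CPM in non-injured libraries. Both letter A libraries stood above the rest in Sdhd, and its log2 fold change was -0.04 with all libraries and -0.41 without injured A.

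Complex III, the cytochrome bc1 complex, had 7 of 9 members with a negative sign. Uqcrc1, a core protein on the matrix side (chromosome 9, 108936633 to 108949624 on mm10, plus strand), had 178, 160 and 176 CPM in injured libraries, against 196, 194 and 180 CPM in non-injured libraries. The gap between the nearest values of the groups was narrower than the spread within either (log2 -0.15 ± 0.13 SE, adjusted p 0.65). Uqcrc2, the other core protein, had 56.4, 51.4 and 56.3 CPM in injured libraries, against 68.0, 58.6 and 56.6 CPM in non-injured libraries (log2 -0.16 ± 0.14 SE, adjusted p 0.641). Its highest injured and lowest non-injured values nearly met, and its exons overlap Pdzd9 on the other strand. Uqcr10, a small subunit, had 21.4, 24.5 and 25.1 CPM in injured libraries, against 33.0, 28.4 and 24.0 CPM in non-injured libraries (log2 -0.27 ± 0.16 SE, adjusted p 0.475), and the wide gap was in letter A. Uqcrq, a subunit near the ubiquinone site and the highest of the complex at 246 CPM per kb, had 124, 118 and 145 CPM in injured libraries, against 118, 129 and 110 CPM in non-injured libraries (log2 0.12 ± 0.14 SE, adjusted p 0.736). Uqcr11, another small subunit, also had a log2 fold change of 0.12 with overlapping groups.

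Complex IV, the cytochrome c oxidase, holds the tissue isoforms, and the promoters of some of them are shown to compare a muscle isoform with its partners. Windows from 250 bases before to 50 bases after the gene start, from RefSeq on GRCm38.p6, were found for 66 members. Both strands were searched for GCGCA and GCGC with 1 base between them (bound by NRF1, a factor of mitochondrial biogenesis), CCGGAAG (bound by ETS factors, among them GABP or NRF2) and CAGCTG (an E-box, bound by factors such as MyoD). CTA and TAG with any 4 bases between them were searched too, a looser pattern than the sites bound by MEF2. Capitals mark the matches, which did not overlap each other, and each sequence runs 5′ to 3′ along its gene.
Cox8b, chr7:140900397-140900696, minus strand: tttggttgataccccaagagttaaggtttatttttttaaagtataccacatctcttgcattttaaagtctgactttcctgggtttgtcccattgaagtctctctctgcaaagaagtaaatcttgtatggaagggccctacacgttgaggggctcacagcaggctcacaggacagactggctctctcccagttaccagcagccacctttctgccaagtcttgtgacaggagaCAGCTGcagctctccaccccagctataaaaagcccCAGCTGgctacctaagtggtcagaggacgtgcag
Cox8a, chr19:7217567-7217866, minus strand: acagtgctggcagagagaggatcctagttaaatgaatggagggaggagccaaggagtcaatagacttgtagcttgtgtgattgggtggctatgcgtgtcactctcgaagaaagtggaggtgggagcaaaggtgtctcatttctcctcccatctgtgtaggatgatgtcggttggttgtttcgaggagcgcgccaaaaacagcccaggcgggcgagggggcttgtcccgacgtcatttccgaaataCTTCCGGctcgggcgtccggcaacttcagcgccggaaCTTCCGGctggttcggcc
Cox6a1, chr5:115348909-115349208, minus strand: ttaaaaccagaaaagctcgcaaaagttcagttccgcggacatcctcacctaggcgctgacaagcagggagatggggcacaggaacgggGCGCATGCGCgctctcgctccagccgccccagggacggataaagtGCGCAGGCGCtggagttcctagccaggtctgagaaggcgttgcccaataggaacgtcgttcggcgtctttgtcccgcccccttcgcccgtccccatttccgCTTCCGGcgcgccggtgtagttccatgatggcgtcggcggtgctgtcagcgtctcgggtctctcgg
Uqcrc1, chr9:108936398-108936697, plus strand: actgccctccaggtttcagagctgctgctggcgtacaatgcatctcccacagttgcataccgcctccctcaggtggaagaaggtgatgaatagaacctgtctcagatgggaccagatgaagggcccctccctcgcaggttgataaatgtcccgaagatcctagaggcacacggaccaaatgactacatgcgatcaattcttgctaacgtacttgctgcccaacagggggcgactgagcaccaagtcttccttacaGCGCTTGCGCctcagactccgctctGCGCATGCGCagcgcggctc

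In these windows Cox8b, the muscle isoform of COX8, held 2 E-box matches, and Cox8a, its partner in most tissues, held 2 ETS matches. Cox6a1, the partner of the muscle isoform Cox6a2, held 2 NRF1 matches and 1 ETS match, and Uqcrc1 held 2 NRF1 matches just after its start. No window was found for Cox6a2 itself. The windows of Cox7a1, the muscle isoform of COX7A, and of its partner Cox7a2 held no match to any of these letters. Over the 66 members the NRF1 letters were found in 16 windows (24.2%), against 4.60% of 32851 windows of that length, and the ETS letters in 16 (24.2%), against 8.86%. E-box letters were found in 6 (9.09%), against 16.3% of all windows, and the looser MEF2 pattern in 1 (1.52%), against 3.69%. The members' windows had a median GC content of 57.3%, against 52.7% over all windows. Each member gave 1 window, the nearest to its start, while the 32851 windows were not chosen by gene, gene type or expression. A match is a run of letters and not a measured binding site.

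In the COX6A and COX8 groups of complex IV the muscle isoform held most of the RNA in every library of both groups. Cox8b took 94.6% ± 1.81 of the COX8 level per transcript length in injured and 94.7% ± 1.03 in non-injured libraries, while Cox6a2 took 93.3% ± 1.74 of the COX6A level in injured and 94.7% ± 0.50 in non-injured libraries (SD, n = 3 each). Cox8b had 84.8, 74.1 and 96.4 CPM in injured libraries, against 103, 83.8 and 69.6 CPM in non-injured libraries, and Cox8a had 10.4, 5.65 and 6.12 CPM in injured libraries, against 8.29, 8.84 and 4.95 CPM in non-injured libraries. Neither pair of groups was set apart, with log2 fold changes of -0.00 ± 0.17 for Cox8b and 0.00 ± 0.32 for Cox8a (SE). Cox6a2 had 101, 86.0 and 114 CPM in injured libraries, against 106, 116 and 94.6 CPM in non-injured libraries (log2 -0.07 ± 0.15 SE, adjusted p 0.865). Cox6a1 had 5.21, 6.88 and 5.70 CPM in injured libraries, against 5.48, 4.94 and 4.55 CPM in non-injured libraries, and only injured A lay below a non-injured value (log2 0.25 ± 0.27 SE, adjusted p 0.721). Cox4i2, Cox6b2, Cox7b2 and Cox8c were not among the rows analysed here.

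The COX7A group was spread over 3 genes, with shares that turned on the length of each transcript. By counts Cox7a1 took 37.0% in injured and 40.7% in non-injured libraries, while Cox7a2l took 38.3% in injured and 33.0% in non-injured libraries. Per length Cox7a1, the heart and muscle isoform, took 53.7% ± 3.47 of the level per length in injured and 57.0% ± 1.37 in non-injured libraries. Cox7a2, the isoform of most tissues, took 24.0% ± 2.47 in injured and 24.5% ± 0.16 in non-injured libraries. Cox7a2l, a related protein that joins complexes III and IV into supercomplexes, took 19.8%, 23.9% and 22.9% in injured libraries, against 17.1%, 18.4% and 19.8% in non-injured libraries. Its lowest injured and highest non-injured shares were nearly equal, and its own CPM overlapped between groups (log2 0.07 ± 0.15 SE, adjusted p 0.867). Cox7a1 had 25.6, 20.2 and 27.1 CPM in injured libraries, against 33.8, 28.9 and 26.1 CPM in non-injured libraries (log2 -0.29 ± 0.17 SE, adjusted p 0.449). Cox7a2 (chromosome 9, 79755361 to 79759879 on mm10, minus strand) had 16.7, 16.0 and 15.7 CPM in injured libraries, against 21.4, 18.5 and 17.4 CPM in non-injured libraries, so that the groups did not overlap (log2 -0.24 ± 0.17 SE, adjusted p 0.527).

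**Figure D4:**
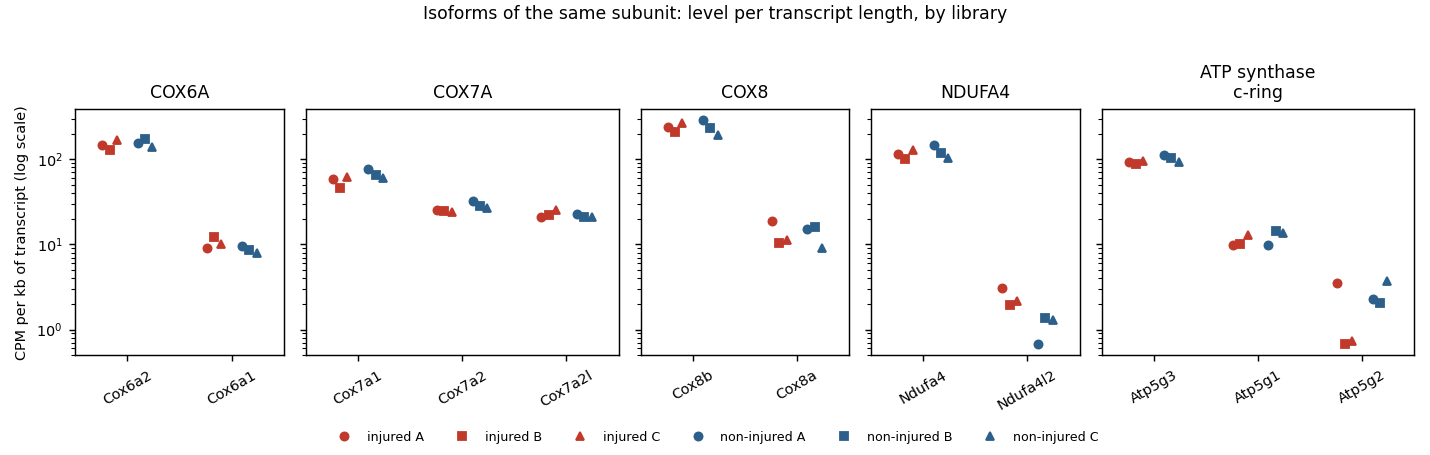
Level of each isoform in CPM per kb of transcript on a log axis, in injured (red, left) and non-injured (blue, right) libraries, with the letter as the shape. Per kb, Cox6a2, Cox7a1, Cox8b, Ndufa4 and Atp5g3 lead their groups in every library. The groups of libraries are set apart for Cox7a2 and for Ndufa4l2, which passed the count filter through its injured libraries alone.

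The other members of complex IV overlapped between groups. Cox7b, a small subunit, had 57.0, 46.9 and 64.2 CPM in injured libraries, against 74.5, 70.4 and 58.9 CPM in non-injured libraries (log2 -0.28 ± 0.16 SE, adjusted p 0.433), and injured B stood lowest. Cox4i1, among the first nuclear subunits to join the complex, had 125, 115 and 132 CPM in injured libraries, against 122, 113 and 104 CPM in non-injured libraries (log2 0.14 ± 0.14 SE, adjusted p 0.684), and letter C gave the gap. Cox6c, the highest of the complex at 279 CPM per kb, had 168, 145 and 175 CPM in injured libraries, against 176, 182 and 168 CPM in non-injured libraries (log2 -0.11 ± 0.14 SE, adjusted p 0.754). Cox6b1, which faces cytochrome c, had a log2 fold change of -0.10 with overlapping groups.

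Ndufa4, grouped with complex I by its symbol though the protein is known as a subunit of complex IV, was set beside Ndufa4l2, a relative that is induced by hypoxia through HIF-1. Ndufa4l2 (chromosome 10, 127514967 to 127517155 on mm10, plus strand) had 2.91, 1.83 and 1.99 CPM in injured libraries, against 0.638, 1.26 and 1.20 CPM in non-injured libraries. These rest on 19, 12 and 14 counts in injured libraries, against 5, 11 and 9 counts in non-injured libraries, and its exons overlap Shmt2 on the other strand. All injured values lay above the non-injured ones, and the log2 fold change was 1.10 ± 0.50 (SE, adjusted p 0.317), with the wide gap in letter A. The row passed the count filter through its injured libraries alone, so its test and its lack of overlap lend no support to a difference. Ndufa4l2 took 2.06% ± 0.51 of the level per length of the pair in injured and 0.945% ± 0.42 in non-injured libraries (SD, n = 3 each). Ndufa4 itself had 53.1, 46.2 and 58.7 CPM in injured libraries, against 67.6, 54.1 and 47.4 CPM in non-injured libraries (log2 -0.10 ± 0.16 SE, adjusted p 0.823).

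Complex V had the highest levels, with a median of 96.6 CPM per kb over its 17 members. Atp5b, the catalytic beta subunit and the highest member of all at 293 CPM per kb, had 569, 506 and 607 CPM in injured libraries, against 602, 561 and 527 CPM in non-injured libraries. The groups overlapped almost fully, and the 95% interval of its log2 fold change ran from -0.30 to 0.29 around -0.01. Atp5a1, the alpha subunit, had 515, 421 and 489 CPM in injured libraries, against 540, 481 and 429 CPM in non-injured libraries (log2 -0.02 ± 0.15 SE, adjusted p 0.958). Atp5e, the epsilon subunit, was the only 1 of the 16 tested members of the complex with a positive sign, with 52.1, 68.0 and 74.3 CPM in injured libraries, against 55.7, 67.5 and 53.0 CPM in non-injured libraries (log2 0.14 ± 0.17 SE, adjusted p 0.74). Atp5j, factor 6 of the stalk, had a log2 fold change of -0.07. Atp5mpl, a small membrane subunit, had 35.5, 31.2 and 49.6 CPM in injured libraries, against 52.4, 42.7 and 43.8 CPM in non-injured libraries (log2 -0.26 ± 0.18 SE, adjusted p 0.541), and injured C stood apart from injured A and B. Atp5k, subunit e, which serves the pairing of ATP synthases, stood at log2 -0.21 ± 0.18 (SE, adjusted p 0.635).

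The c-ring of the ATP synthase, which turns as protons pass, is made from 3 genes that give the same mature protein. Atp5g3 took 88.0% ± 0.86 of their level per length in injured and 86.9% ± 3.13 in non-injured libraries, while Atp5g1 took 10.5% ± 1.32 in injured and 10.8% ± 2.52 in non-injured libraries. By counts, with no division by length, Atp5g1 took 30.4% in injured and 31.0% in non-injured libraries, while Atp5g3 took 68.6% in injured and 67.6% in non-injured libraries, since the length used for Atp5g1 was 2675.5 bases and that for Atp5g3 718.5 bases. Atp5g3 had 66.3, 62.7 and 67.5 CPM in injured libraries, against 80.5, 73.6 and 65.7 CPM in non-injured libraries, and injured A and C lay above the lowest non-injured value (log2 -0.16 ± 0.14 SE, adjusted p 0.623). Atp5g1 had 26.0, 27.2 and 34.1 CPM in injured libraries, against 26.2, 38.5 and 36.1 CPM in non-injured libraries (log2 -0.20 ± 0.18 SE, adjusted p 0.636). Atp5g2 had 2.04, 0.395 and 0.427 CPM in injured libraries, against 1.33, 1.21 and 2.20 CPM in non-injured libraries. It did not pass the count filter, so its difference was not tested.

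Other genes of the pathway were read from the same fit. Of 53 measured assembly factors, which build the complexes and are not part of them, 0 were higher and 0 lower by edgeR, by DESeq2 and by limma-voom. Their median log2 fold change was -0.11, with 22 positive and 31 negative signs, and 6 had an unadjusted p under 0.05 in edgeR, below the 15.4% of all genes. For 9 of the 53, every injured library lay below every non-injured one, a larger share than the 9.61% of all genes tested. For 2, every injured library lay above, against 11.9%. Of 14 measured genes of cytochrome c and ubiquinone synthesis, 0 were called by edgeR, DESeq2 or limma-voom, and the median was -0.03. In edgeR 1 had an unadjusted p under 0.05, a smaller share than over all genes. In every injured library 2 lay lower, a larger share than over all genes, and 0 lay higher. With the letter block 0 of either list were called.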

How the data were processed

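The deposited table holds estimated counts per gene made by the authors. STAR 2.7.8a, Partek and DESeq2 and the builds mm10 and hg19 are named in the submitters' processing notes; for the counter and its strand setting no source used here gives a name. The name of the table calls the RNA myonuclear, while the labels' protocol describes total RNA. The lowest row maximum was 10, so rows below it in every library are not in the table, and 35 members had a fractional value (tolerance 0.01).

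Counts were rounded, filtered with filterByExpr (16095 genes kept, 3920 dropped), scaled by TMM and tested with edgeR 4.0.16 (R 4.3.3; quasi-likelihood F test, two-sided, Benjamini-Hochberg over all genes). CPM use TMM factors, and levels per kb divide by the median length of a gene's protein-coding transcripts in GENCODE M21. DESeq2 1.42.0 and limma 3.58.1 were alternatives. Deviations from group means correlated between same-letter libraries at 0.316 (A), 0.208 (B) and 0.113 (C) over all genes. Over the members alone these were 0.193 (A), 0.0379 (B) and 0.151 (C), and injured B with non-injured C gave 0.152. The letters were treated as pairs in the letter ratios and in the fit with the letter block. The main fit, with its SE and p-values, and the permutation test leave the letters out. What the letters stand for is not given.

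Named were, in each complex, the 2 highest and 2 lowest fold changes at a mean of at least 50 counts, the 3 highest levels per kb, isoform groups, and members whose groups did not overlap. Members, lists and tests were chosen with earlier results of these data known. Coordinates match GENCODE on mm10 for 82 members, all but Atp5o. Exons of 27 members overlap the span of another gene. Among them are Cox6a2, Ndufs6 and Atp5j, with a gene on the other strand, and Cox4i1 and Ndufb9, with a gene on the same strand.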

Additional observations from a re-analysis of the deposited data

How the results depend on the processing

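No member was called in any of the 13 other settings planned. The median log2 fold change of the members stayed negative in each, from -0.01 under a mean count minimum of 50 and -0.03 with upper quartile scaling to -0.13 without a count filter, and from -0.18 to -0.01 when 1 library was left out. With the replicate block it was -0.08 with 0 members called, and the block changed no call of a member row as deposited. In the merged rows with the replicate block, a setting added after seeing the data, 1 member (Ndufb4) was called lower. The medians of complexes II and IV turned positive in some settings, up to 0.01 and 0.05. Over 538 comparisons of 36 named members with their main value, 8 moved by more than the SE and 44 had the other sign. Over all genes 120 were called, against 327 by DESeq2, 59 by limma-voom, 943 with the block, 297 without both letter A libraries, and 20 to 129 with 1 library left out.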
